A study of Rattus norvegicus with 18 samples.

Results

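The sarcomeric myosin heavy chains, the motor proteins of the muscle thick filament, were followed here in RNA from rat tibialis anterior, a fast muscle of the lower leg. The 7 chains Myh1, Myh2, Myh3, Myh4, Myh7, Myh7b and Myh8 were looked up by symbol among the 30560 entries of the count and TPM (transcript abundance scaled for transcript length and library total) tables, and 6 of the 7 had an entry. Myh1, the type IIx chain, had none under its symbol, so every sum and share below covers the other 6 chains. Of the 30560 entries, 7162 carried no symbol.

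The 18 libraries came from whole frozen muscle. Rats aged 9 months gave 6 libraries of DMD animals labelled p16-null, 3 libraries of DMD animals, a rat model of Duchenne muscular dystrophy, and 3 libraries of wild-type (WT) animals. Both sets of DMD rats share the dystrophic genotype, and p16, a cell cycle inhibitor, is encoded by Cdkn2a. A separate set held 3 libraries of WT rats aged 18 months and 3 of WT rats aged 3 months. The strain, the sex and the alleles behind the DMD and p16-null labels were not given in the sources used here. The study compared the 9-month groups with each other and the 18-month with the 3-month WT group. Replicates were named only by number in the sample titles, so the spread behind each p-value is that between libraries and may be technical.

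A myosin heavy chain holds the ATPase head that pulls on actin and the rod that packs into the thick filament, and which chain a fibre makes sets much of its speed of shortening. Rodent fast fibres use Myh4 (type IIb), Myh1 (IIx) and Myh2 (IIa), slow fibres use Myh7 (beta, type I), and Myh7b is a slow-tonic chain found at low level. Myh3 (embryonic) and Myh8 (perinatal) are made by forming fibres, are normally replaced after birth, and return in regenerating fibres of adult muscle.

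Estimated count totals were 10.8 to 21.99 M in the libraries labelled p16-null DMD, 11.5 to 16.6 M in DMD, 9.61 to 15.8 M in WT at 9 months, 10.3 to 12.4 M in WT at 18 months and 12.3 to 13.8 M in WT at 3 months. Dmd, the dystrophin gene, was at 6.88 to 12.28 TPM in p16-null DMD, 7.35 to 11.15 in DMD and 12.38 to 17.98 in WT at 9 months. It was at 18.02 to 26.16 TPM in WT at 18 months and 8.58 to 12.76 at 3 months, the latter overlapping both dystrophic groups. Cdkn2a was at 31.81 to 45.33 TPM in p16-null DMD, 35.19 to 54.45 in DMD and 0 to 0.41 in WT at 9 months. Its entry also counts the transcript of a second protein (p19Arf), and which exons the p16-null allele lacks was not given, so the Cdkn2a total does not check that label. Summed TPM of 6 skeletal muscle fibre markers (Acta1, Ckm, Des, Ttn, Neb, Mb) was 27764 to 50733 in p16-null DMD, 30819 to 39470 in DMD, 53632 to 69111 in WT at 9 months, 46326 to 51760 at 18 months and 59780 to 71017 at 3 months. The 6 heart muscle markers summed to at most 1.53, 3.74, 0.33, 0.86 and 0.94 TPM in the same order, with Tbx5 at 0 in every library.

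By RefSeq, in the GRCr8 assembly, Myh3, Myh2, Myh1, Myh4 and Myh8 lie in that order in a cluster on chromosome 10, while Myh7 is on chromosome 15 and Myh7b on chromosome 3. The promoter windows of the adult fast chains Myh4 and Myh2 and of the embryonic chain Myh3 are shown because these neighbours in the cluster moved in opposite directions in the dystrophic muscle. Each window runs from 250 bases before to 50 bases after the RefSeq start, 5′ to 3′ on the plus strand of GRCr8, at chr10:52421898-52422197 for Myh4, chr10:52355489-52355788 for Myh2 and chr10:52268935-52269234 for Myh3. Capitals mark the longest run shared by Myh4 and Myh2 (21 bases) and the TATA box.
Myh4: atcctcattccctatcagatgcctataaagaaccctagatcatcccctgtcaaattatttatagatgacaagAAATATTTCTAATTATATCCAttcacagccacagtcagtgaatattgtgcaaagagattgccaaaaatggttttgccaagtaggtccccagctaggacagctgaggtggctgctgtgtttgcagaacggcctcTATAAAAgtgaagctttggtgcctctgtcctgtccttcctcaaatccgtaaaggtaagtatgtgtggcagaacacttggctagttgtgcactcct
Myh2: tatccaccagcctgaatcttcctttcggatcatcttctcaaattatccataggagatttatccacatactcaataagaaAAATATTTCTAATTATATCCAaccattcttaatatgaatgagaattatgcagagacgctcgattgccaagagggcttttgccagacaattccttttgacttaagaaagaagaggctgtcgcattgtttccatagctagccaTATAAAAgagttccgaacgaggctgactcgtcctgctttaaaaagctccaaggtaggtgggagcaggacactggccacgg
Myh3: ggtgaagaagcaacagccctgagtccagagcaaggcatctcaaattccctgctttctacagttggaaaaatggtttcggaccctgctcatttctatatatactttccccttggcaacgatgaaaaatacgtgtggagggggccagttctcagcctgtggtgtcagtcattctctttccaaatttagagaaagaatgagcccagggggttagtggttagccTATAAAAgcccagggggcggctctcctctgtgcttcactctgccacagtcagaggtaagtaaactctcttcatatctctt
The shared run was found in 2 of 33469 RefSeq promoter windows of this length, those of Myh4 and Myh2, and 20 of its bases also stood in the Myh1 window. The TATA box, searched as TATAAAA on the sense strand, began at base 206 of the Myh4 window and base 221 of the Myh2 and Myh3 windows, and was present in 3.49% of all windows. It was not found in the Myh8, Myh7 and Myh7b windows. A CArG box, searched on both strands, was found once in the Myh4 window (1.64% of all windows hold one), and the MEF2 consensus, also on both strands, was found once each in the Myh4 and Myh1 windows (3.29% of all windows). E-boxes (CANNTG, both strands) numbered 3 in the Myh4 window, 0 in Myh2 and 1 in Myh3, against a presence of at least 1 in 72.1% of all windows. These matches describe the letters only.

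Myh4 was the most abundant of the measured chains in all 18 libraries, and which chain was lowest differed between groups. On the TPM scale, which is per transcript length and so allows chains to be compared, the group means of Myh4 were 3779.5 ± 1073 in p16-null DMD (SD, n = 6), 4197 ± 731 in DMD, 8770.4 ± 1083 in WT at 9 months, 6033 ± 283 in WT at 18 months and 6366 ± 1484 in WT at 3 months (SD, n = 3 each). Myh2 was the second chain in every library, at group means of 215 to 745 TPM. Myh7b was the lowest chain in both dystrophic groups, at 2.71 ± 1.49 TPM in p16-null DMD (SD, n = 6) and 2.95 ± 1.33 in DMD (SD, n = 3). It was also the lowest in WT at 18 months, at 1.71 ± 0.302 TPM (SD, n = 3). Myh3 was lowest in WT at 9 months, at 0.347 ± 0.228 TPM, and at 3 months, at 0.433 ± 0.180 (SD, n = 3 each). The 6 chains summed to 4405 ± 917 TPM in p16-null DMD (SD, n = 6), 4597 ± 794 in DMD, 9352 ± 876 in WT at 9 months, 6867 ± 242 in WT at 18 months and 6947 ± 1565 in WT at 3 months (SD, n = 3 each). Ordered by group mean, Myh4 was highest in WT at 9 months, with no overlap with WT at 3 months as the next group. WT at 3 and 18 months overlapped each other. DMD and p16-null DMD overlapped each other too, lay below WT at 18 months, and reached above the lowest library of WT at 3 months. Myh2 ran from WT at 18 months, above all other groups, through WT at 3 months, WT at 9 months and p16-null DMD to DMD, with overlap between each of the later neighbours. For Myh7 and Myh7b every pair of neighbouring groups overlapped. In bulk muscle RNA, fewer fibres of a type and less of a chain's RNA per fibre cannot be told apart.

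**Figure D1:**
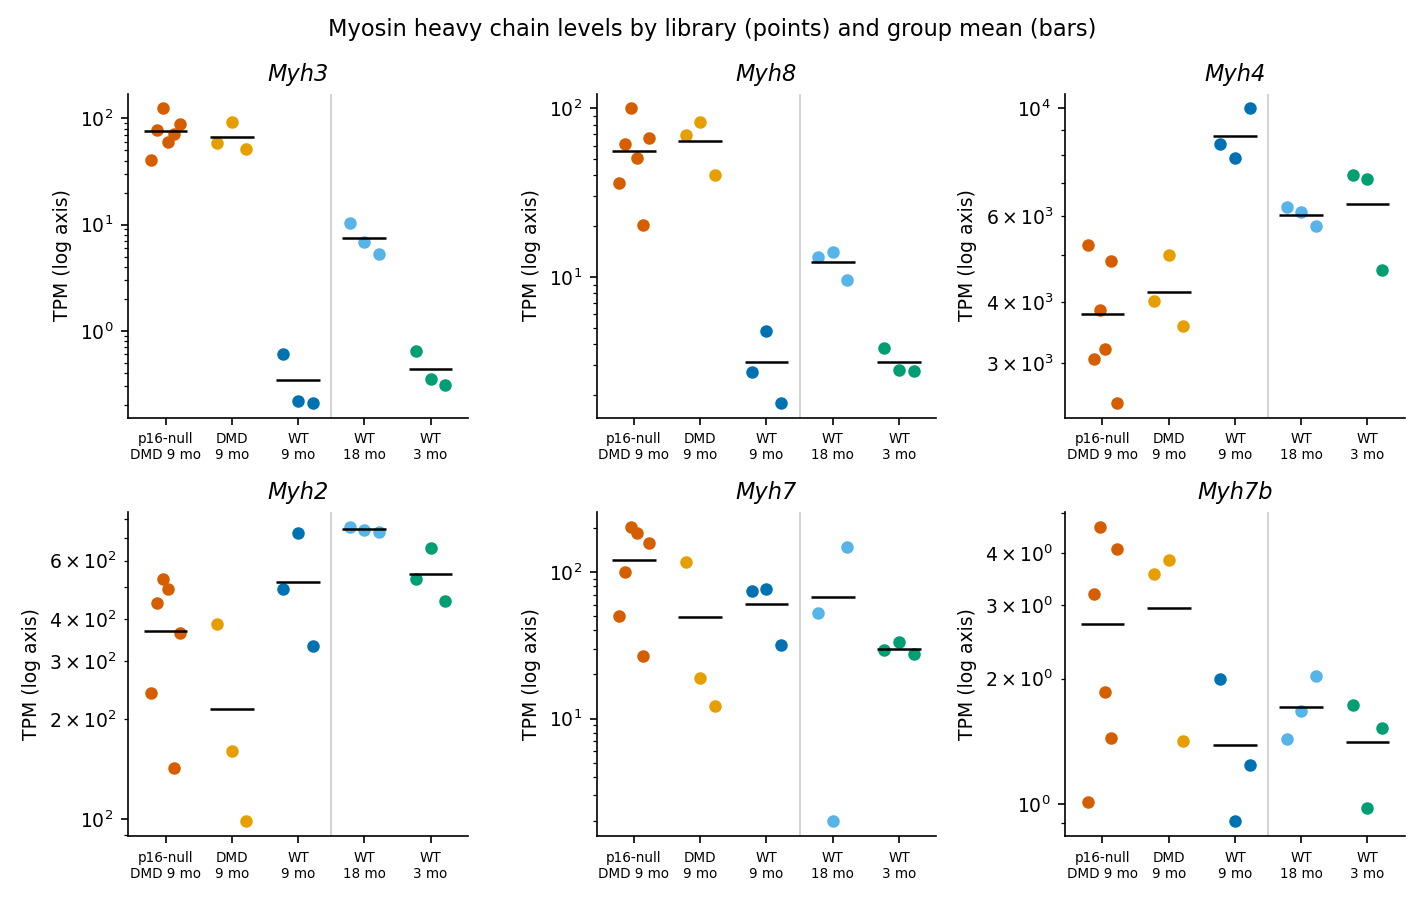
Level of each myosin heavy chain in TPM (log axes that differ between panels) for each library (points), with the group mean as a bar, in p16-null DMD, DMD and WT at 9 months and, right of the line, WT at 18 and 3 months. Myh3 and Myh8 in the 9 dystrophic libraries sit above every WT library, while Myh4 in those 9 libraries sits below every WT library of the same age.

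In DMD against WT muscle at 9 months, both developmental chains rose and both measured adult fast chains fell. Myh3 was at 58.7, 92.4 and 51.7 TPM in DMD, against 0.61, 0.22 and 0.21 TPM in WT. The WT values rest on estimated counts of 36.4, 9.03 and 11.1. The groups lay far apart, and the fitted log2 fold change was 6.87 ± 0.50 (SE; edgeR quasi-likelihood test, Benjamini-Hochberg adjusted p = 9.1e-07). It was 7.62 without WT replicate 1, 7.51 with library totals and 5.64 on log2(TPM + 1), all past the threshold. Myh8 was at 69.1, 82.9 and 40.4 TPM in DMD, against 2.74, 4.8 and 1.79 TPM in WT. These groups did not overlap either, with a log2 fold change of 3.62 ± 0.53 (edgeR, adjusted p = 6.3e-05), 4.25 with library totals and 4.37 on log2(TPM + 0.1).

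Among the adult fast chains, Myh4, the fastest, was at 4023, 4999 and 3569 TPM in DMD, against 8447, 7885 and 9979 TPM in WT. Every DMD library was below every WT library, and the log2 fold change was -1.80 ± 0.32 (edgeR, adjusted p = 0.00035). Myh2, the fast oxidative chain, was at 386.6, 160.9 and 98.7 TPM in DMD, against 491.6, 724.3 and 332.03 TPM in WT. DMD replicate 1 lay within the WT range, and the log2 fold change was -2.05 ± 0.52 (edgeR, adjusted p = 0.0048), or -2.74 without that replicate (edgeR, adjusted p = 0.0013). Leaving out 1 library gave -2.74 to -1.67, all past the threshold. The size of both falls depended on scaling, since the median of all genes stood at a log2 fold change of 0.11 with TMM normalisation and 0.76 with library totals. With library totals the log2 fold changes were -1.18 for Myh4 (edgeR, adjusted p = 0.0025) and -1.41 for Myh2 (edgeR, adjusted p = 0.025), both still below the median.

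The slow chains did not pass the test in DMD. Myh7, the slow chain of type I fibres, was at 117.9, 18.9 and 12.2 TPM in DMD, against 74.4, 76.5 and 31.8 TPM in WT. DMD replicate 1 was above all WT libraries and replicates 2 and 3 were below them, and the log2 fold change was -1.10 ± 0.78 (edgeR, adjusted p = 0.26). Without that replicate it was -2.71 (edgeR, adjusted p = 0.0098). Myh7b was at 3.57, 3.86 and 1.42 TPM in DMD, against 2, 0.91 and 1.24 TPM in WT, with a log2 fold change of 0.35 ± 0.52 (edgeR, adjusted p = 0.61).

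In all, 2 of the 6 chains were higher and 2 lower in DMD, where 26.4% of the 14801 tested genes were higher and 21.8% lower (48.3% called in either direction). All 6 chains passed the filter on low counts. With so large a share of all genes called, the count of 4 in 6 is no result about the family. Other cell types differed between the same groups: 6 fibroblast markers summed to 2872 to 5805 TPM in DMD, against 956 to 1068 in WT, and 6 macrophage markers to 2131 to 3906 TPM in DMD, against 156 to 184 in WT. The 5 adipocyte markers summed to 2967 to 4019 TPM in DMD, against 553 to 689 in WT, with 4 of 5 higher and the largest median log2 fold change of the 3 lists (3.57, against 2.81 for macrophage and 2.06 for fibroblast markers). Of 5 smooth muscle and pericyte markers 1 was higher and 0 lower (median 0.18). Of 5 endothelial markers 0 were higher and 1 lower (median 0.02). With library totals 3 of 5 were higher and 0 lower in each of these 2 lists. All 6 fibroblast and all 6 macrophage markers rose and all 6 fibre markers fell (edgeR), although only 2 of the 6 fibre markers fell with library totals. Their part in the chains' changes was not tested.

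**Figure D2:**
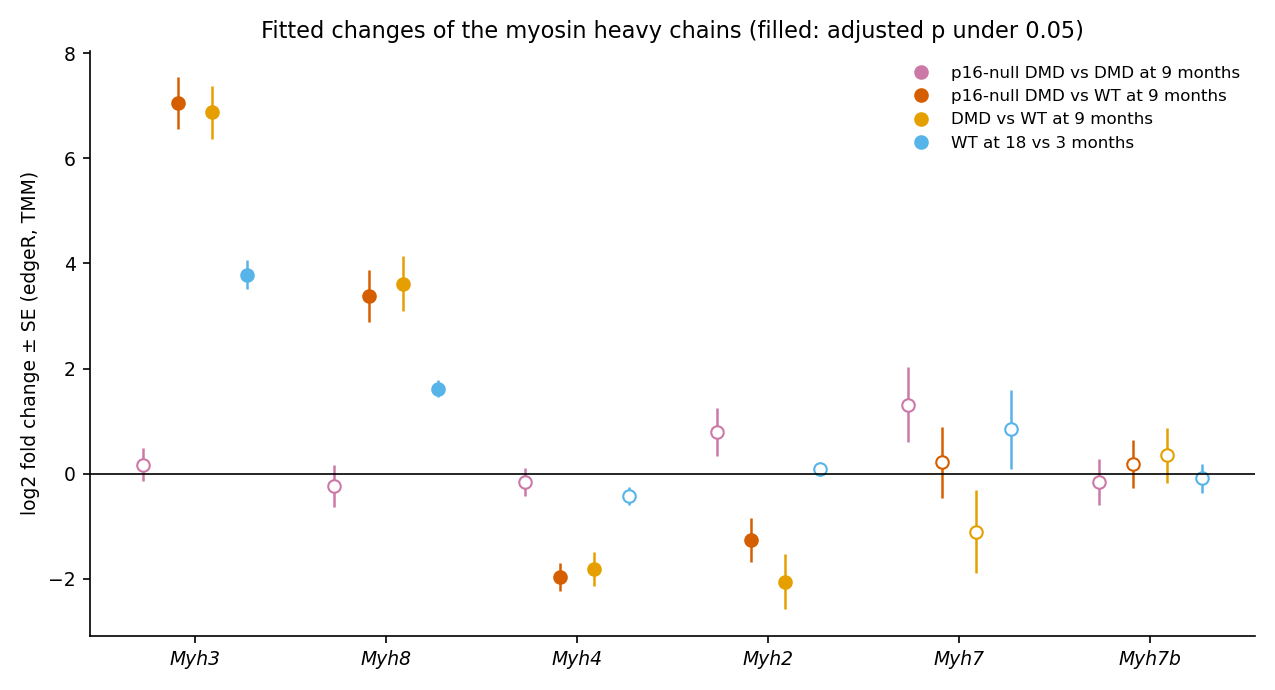
Fitted log2 fold change with its standard error (edgeR, TMM normalisation) for each chain in the 4 comparisons, with filled points where the adjusted p was under 0.05. Myh3 and Myh8 are well above 0 in both dystrophic groups against WT and in WT at 18 against 3 months, and all 6 chains are unfilled in p16-null DMD against DMD.

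In the libraries labelled p16-null DMD against WT, both developmental chains were higher and Myh4 and Myh2 lower, in a comparison that shares its 3 WT libraries with the preceding one. Myh3 had a lowest, median and highest value of 40.5, 74.0 and 124.7 TPM in p16-null DMD, against 0.61, 0.22 and 0.21 TPM in WT. Its log2 fold change was 7.05 ± 0.49 (edgeR, adjusted p = 2.8e-07), 6.74 to 7.79 leaving out 1 library (highest without WT replicate 1), 7.68 with library totals and 5.79 on log2(TPM + 1). Myh8 had 20.3, 56.2 and 99.97 TPM as lowest, median and highest in p16-null DMD, against 2.74, 4.8 and 1.79 TPM in WT, and a log2 fold change of 3.39 ± 0.49 (edgeR, adjusted p = 5.3e-05), 4.02 with library totals and 4.07 on log2(TPM + 0.1). For both developmental chains the lowest p16-null DMD library was above the highest WT library.

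Of the adult chains, Myh4 had 2487, 3527 and 5225 TPM as lowest, median and highest in p16-null DMD, against 8447, 7885 and 9979 TPM in WT. The groups did not overlap, and the log2 fold change was -1.96 ± 0.26 (edgeR, adjusted p = 2.4e-05), or -1.36 with library totals (edgeR, adjusted p = 0.00017). Myh2 had 142.5, 405 and 529.8 TPM in p16-null DMD, against 491.6, 724.3 and 332.03 TPM in WT. The groups overlapped, and its log2 fold change of -1.26 ± 0.42 passed the test (edgeR, adjusted p = 0.022). The call did not hold with library totals, at -0.65 (edgeR, adjusted p = 0.19), on log2(TPM + 1), at -0.54 (limma, adjusted p = 0.29), or without WT replicate 2, at -0.88 (edgeR, adjusted p = 0.149).

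Myh7 had 26.6, 129 and 203.8 TPM as lowest, median and highest in p16-null DMD, against 74.4, 76.5 and 31.8 TPM in WT, with a log2 fold change of 0.22 ± 0.67 (edgeR, adjusted p = 0.81). Myh7b had 1.01, 2.53 and 4.63 TPM in p16-null DMD, against 2, 0.91 and 1.24 TPM in WT, with a log2 fold change of 0.19 ± 0.46 (edgeR, adjusted p = 0.75). Neither slow chain passed the test, and both groups' ranges overlapped. With 2 chains higher and 2 lower, the count compares with 27.5% of all genes higher and 22.7% lower (50.2% called). The fibroblast markers summed to 3755 to 6987 TPM in p16-null DMD, against 956 to 1068 in WT, and the macrophage markers to 1470 to 4731 TPM, against 156 to 184. The adipocyte markers summed to 954 to 4984 TPM in p16-null DMD, against 553 to 689 in WT. Of 5 smooth muscle and pericyte markers 1 was higher and 0 lower, and of 5 endothelial markers 2 were higher and 1 lower (edgeR). With library totals 3 of 5 were higher and 0 lower in each of these 2 lists. All 6 fibre markers fell (edgeR), although only 3 of the 6 fell with library totals. The part of these cell types in the chains' changes was not tested.

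Between p16-null DMD and DMD no chain passed the test (0 of 6 by edgeR, by DESeq2 and by limma). At an unadjusted p under 0.05 there were 0 of 6 by edgeR and by DESeq2 and 1 of 6 by limma on log2(TPM + 1). One gene of 14801 was called in this comparison by edgeR (0.00676%), with 764 at an unadjusted p under 0.05, and DESeq2 called 13. The developmental chains had log2 fold changes of 0.18 ± 0.32 for Myh3 and -0.23 ± 0.40 for Myh8 (SE), and Myh4 had -0.16 ± 0.27. Those of the oxidative chains were larger with larger errors, at 0.79 ± 0.45 for Myh2 and 1.32 ± 0.71 for Myh7 (edgeR, adjusted p = 0.94 for each), and Myh7b had -0.16 ± 0.44. Without DMD replicate 1, the DMD library highest in both oxidative chains, the log2 fold changes were 1.48 for Myh2 and 2.93 for Myh7, and neither passed (edgeR, adjusted p = 0.32 and 0.134). The Cdkn2a entry itself had a log2 fold change of -0.21 ± 0.23 here (edgeR, adjusted p = 0.98).

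The older WT muscle also carried more of both developmental chains. Myh3 was at 10.3, 6.92 and 5.29 TPM in WT at 18 months, against 0.64, 0.35 and 0.31 TPM at 3 months. Every 18-month library was above every 3-month library, and the log2 fold change was 3.79 ± 0.27 (edgeR, adjusted p = 4.2e-07), or 2.53 on log2(TPM + 1) (limma, adjusted p = 4.3e-05). Myh8 was at 13.1, 14.1 and 9.64 TPM at 18 months, against 3.78, 2.81 and 2.76 TPM at 3 months. These groups did not overlap, and the log2 fold change was 1.62 ± 0.16 (edgeR, adjusted p = 1.1e-05). In the order of group means, Myh3 and Myh8 at 18 months stood below both dystrophic groups and above WT at 3 and 9 months, with no overlap of ranges on either side. This order spans the 9-month and the age sets, which the design did not compare, and is given as a description.

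The adult chains changed less with age. Myh4 was at 6261, 6121 and 5716 TPM at 18 months, against 7289, 7155 and 4653 TPM at 3 months. The 3-month group held both the highest and the lowest value, and the log2 fold change of -0.42 ± 0.17 did not pass (edgeR, adjusted p = 0.098). It passed with DESeq2 (-0.42, adjusted p = 0.0059) and without 3-month replicate 3 (-0.53, edgeR, adjusted p = 0.0099). Myh2 was at 759.0, 741.1 and 733.9 TPM at 18 months, against 529.9, 653.5 and 453.99 TPM at 3 months. Every 18-month library was above every 3-month library in TPM, while the TMM-scaled log2 fold change was 0.09 ± 0.14 (edgeR, adjusted p = 0.70), against 0.46 on log2(TPM + 1) (limma, adjusted p = 0.027). The median of all genes was 0.0032 with TMM and 0.29 on log2(TPM + 1).

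Among the slow chains, Myh7 was at 52.8, 1.99 and 149.1 TPM at 18 months, against 29.2, 33.3 and 27.4 TPM at 3 months. The 18-month libraries spanned both sides of the 3-month values, and the log2 fold change was 0.84 ± 0.76 (edgeR, adjusted p = 0.49). It was 1.42 without 18-month replicate 2 (edgeR, adjusted p = 0.0091) and -0.55 without 18-month replicate 3. The low value of replicate 2 rests on 85.6 estimated counts, against 1653 to 1836 at 3 months. Myh7b was at 1.43, 1.67 and 2.03 TPM at 18 months, against 1.73, 0.98 and 1.52 TPM at 3 months, with a log2 fold change of -0.09 ± 0.28 (edgeR, adjusted p = 0.86). Thus 2 of 6 chains were higher and 0 lower, where 9.31% of 13487 genes were higher and 10.1% lower (19.4% called). The macrophage markers summed to 364 to 546 TPM at 18 months, against 141 to 245 at 3 months, and the fibroblast markers to 1053 to 1343 TPM, against 1180 to 2771. Of the 6 macrophage markers 5 were higher and 0 lower (edgeR, TMM). Of the 6 fibroblast markers 0 were higher and 4 lower, with a median log2 fold change of -1.07, and of the 6 fibre markers 0 were higher and 2 lower. The adipocyte markers summed to 932 to 1059 TPM at 18 months, against 565 to 803 at 3 months, with 1 of 5 higher. Of 5 smooth muscle and pericyte markers 0 passed, and of 5 endothelial markers 1 was higher and 1 lower (edgeR). The part of these cell types in the chains' changes was not tested.

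As shares of the family's summed TPM, the developmental chains were minor everywhere, and Myh4 kept most of the total even where its level was lowest. Myh3 and Myh8 together made up 3.20% ± 1.47 of the total in p16-null DMD (SD, n = 6), 2.82% ± 0.420 in DMD, 0.0381% ± 0.0192 in WT at 9 months, 0.286% ± 0.0539 in WT at 18 months and 0.0521% ± 0.0104 in WT at 3 months (SD, n = 3 each). The Myh4 share was 86.4, 93.3 and 94.6% in DMD, against 93.7, 90.7 and 96.5% in WT at 9 months. The groups overlapped, with a difference of -2.20 percentage points (exact permutation test, 2-sided, p = 0.6, adjusted p = 0.72).

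The libraries labelled p16-null DMD differed among themselves in both adult and developmental chains. Replicates 2, 3, 4 and 6 had Myh4 shares of 81.6, 80.0, 80.2 and 78.5%, below every other library in the series, and replicates 1 and 5 had 93.4 and 94.9%. The same 4 libraries had Myh2 shares of 11.9, 10.998, 12.3 and 11.5%, against 4.28 and 2.79% in replicates 1 and 5. Their Myh7 shares were 2.68, 4.23, 4.63 and 4.99%, against 0.896 and 0.520% in replicates 1 and 5. Their summed Myh3 and Myh8 shares were 3.69, 4.66, 2.78 and 4.88%, against 1.37 and 1.79% in replicates 1 and 5. In its Myh2 and Myh7 shares DMD replicate 1 stood in the same way apart from DMD replicates 2 and 3. Its Myh2 share was 8.30%, against 3.00 and 2.62%, and its Myh7 share 2.53%, against 0.353 and 0.323%. Its summed Myh3 and Myh8 share of 2.74% lay between theirs, at 3.27 and 2.44%. Between p16-null DMD and DMD the mean Myh2 share differed by 4.32 points and the mean Myh7 share by 1.92 points, neither beyond the spread (exact permutation tests, 2-sided, p = 0.143 and 0.119, adjusted p = 0.245 and 0.238).

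At 18 months the Myh4 share was 88.2, 88.9 and 86.4%, against 92.8, 91.2 and 90.5% at 3 months, and the Myh2 share was 10.7, 10.8 and 11.1%, against 6.75, 8.33 and 8.83%. Neither pair of groups overlapped, with differences of -3.68 points for Myh4 and 2.88 points for Myh2, and both had the smallest p that 3 against 3 libraries allow (exact permutation test, 2-sided, p = 0.1, adjusted p = 0.218). Over the 24 share tests (6 chains in 4 comparisons) the lowest adjusted p was 0.218. The tests of 3 against 3 libraries could not pass, since their smallest possible p is 0.1. In p16-null DMD against WT the exact permutation test could go no lower than p = 0.0238. Myh3 and Myh8 reached it, with no overlap between the groups and an adjusted p of 0.218. With so few libraries the share tests cannot decide whether such shares differ. Shares do not depend on library scaling.

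**Figure D3:**
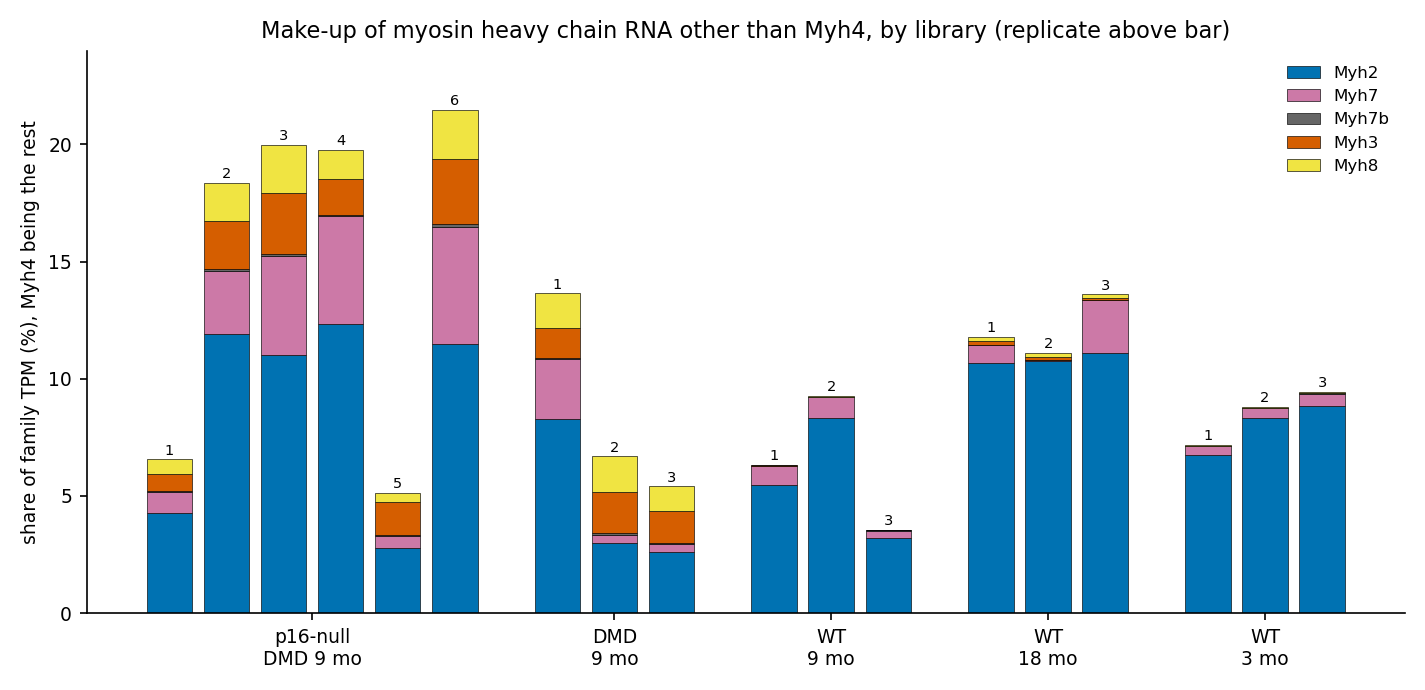
Share of the 6 chains' summed TPM (percent) held by Myh2, Myh7, Myh7b, Myh3 and Myh8 in each library, stacked, with Myh4 as the remainder up to the whole and the replicate number above each bar. Replicates 2, 3, 4 and 6 of p16-null DMD have the tallest bars, where Myh4 held 78.5 to 81.6%, and the Myh3 and Myh8 segments are visible in the dystrophic libraries and thin at 18 months.

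The developmental chains also differed in their ratio to each other. The TPM ratio of Myh3 to Myh8 was 1.12, 1.25, 1.25, 1.18, 3.50 and 1.33 in p16-null DMD, 0.849, 1.11 and 1.28 in DMD, and 0.223, 0.0458 and 0.117 in WT at 9 months. It was 0.787, 0.492 and 0.549 in WT at 18 months, against 0.169, 0.125 and 0.112 at 3 months. The embryonic chain was thus about level with the perinatal chain in dystrophic muscle and well below it in WT muscle at 3 and 9 months, with the 18-month libraries between and no overlap. The difference was not tested. In WT at 9 months the ratio rests on 9.03 to 36.4 estimated counts of Myh3 and 96.6 to 203.6 of Myh8. At 3 months it rests on 19.1 to 36.2 and 151.9 to 218.2.

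**Figure D4:**
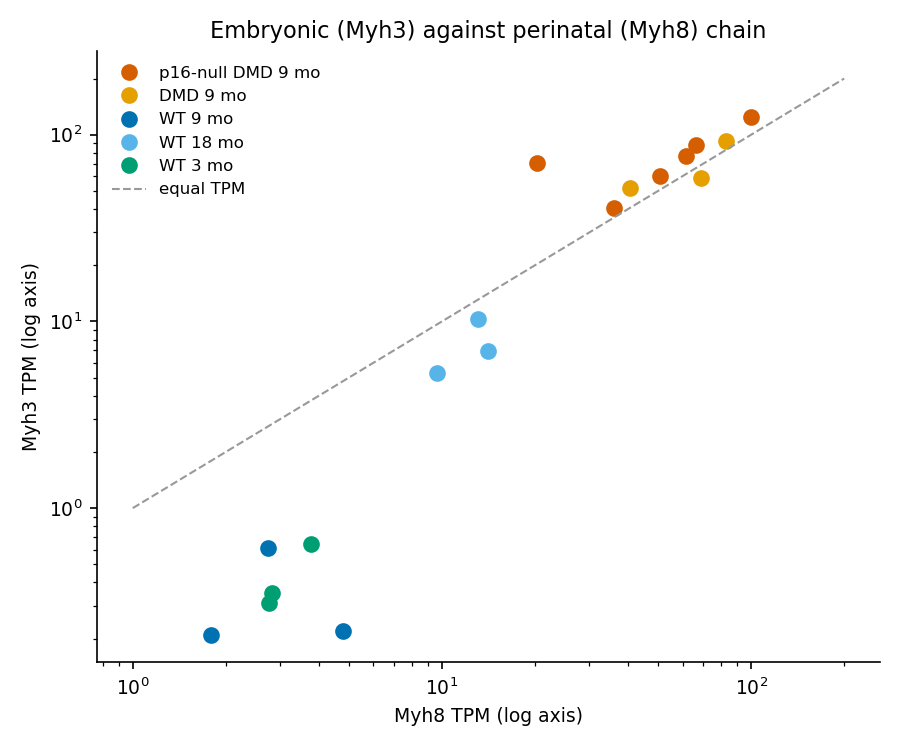
Myh3 against Myh8 in TPM (both axes log) for each library, coloured by group, with a dashed line of equal TPM. Dystrophic libraries lie near the line, with p16-null DMD replicate 5 above it at a ratio of 3.50, and the WT libraries lie below it, those at 18 months nearest to it with ratios of 0.492 to 0.787.

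Each chain works with matching troponins, light chains and calcium-handling proteins, and these were counted by list. Atp2a1, Pvalb, Myl6b, Chrng and Maf had no entry under their symbols. The counts are to be read against all tested genes: in DMD against WT 26.4% were higher and 21.8% lower, or 7691 higher and 1240 lower of 14801 with library totals. The shares were 27.5% higher and 22.7% lower in p16-null DMD against WT (8071 and 1251 genes with library totals), and at 18 against 3 months 9.31% were higher and 10.1% lower (2609 and 652 of 13487 with library totals). All 13 tested partners of fast fibres fell in DMD against WT, with a median log2 fold change of -1.80, and with library totals 11 of 13 fell, with a median of -1.17. Ampd1, the muscle AMP deaminase, was at 159.7, 153.1 and 130.4 TPM in DMD, against 444.2, 435.2 and 533.98 TPM in WT (log2 fold change -2.42 ± 0.29, edgeR, adjusted p = 1.3e-05). Mylk2, the kinase of the fast regulatory light chain, changed by -2.70 ± 0.41 and Pgam2, a glycolytic mutase of muscle, by -1.96 ± 0.30, each with no overlap in TPM. In p16-null DMD against WT all 13 fell too (11 with library totals). At 18 against 3 months all 13 fell, with a median of -1.003, and 10 of 13 fell with library totals.

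Slow fibre partners moved in both directions under TMM. In DMD against WT 2 of 11 rose, 2 fell and 7 did not pass (median 0.02), and with library totals 4 rose and 2 fell. Casq2, the calsequestrin of slow and heart muscle, was at 156.7, 207.8 and 109.6 TPM in DMD, against 7.54, 12.2 and 4.24 TPM in WT (log2 fold change 3.57 ± 0.38, edgeR, adjusted p = 6.4e-06). Tpm3, the slow tropomyosin, rose by 1.01 ± 0.23 and Mybpc1, the slow myosin-binding protein C, fell by 1.39 ± 0.22 on the log2 scale. Of the same 11, 3 rose and 2 fell in p16-null DMD against WT (median 0.79), and with library totals 7 rose and 1 fell (median 1.41). At 18 against 3 months 3 of 11 rose and 1 fell, and with library totals 3 rose and 0 fell.

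Of 11 tested genes used by developing fibres, 6 rose and 2 fell in DMD against WT (median 1.16), and with library totals 9 rose and 0 fell. The 3 genes of the list with the smallest p (edgeR) were embryonic or fetal partners, a ranking by p and not by size of change. Actc1, the cardiac actin that fetal muscle uses, was at 341.3, 380.8 and 366.7 TPM in DMD, against 19.7, 24.4 and 10.6 TPM in WT (log2 fold change 3.55 ± 0.33, edgeR, adjusted p = 2.5e-06). Myl4, the embryonic light chain, rose by 2.59 ± 0.23 and Tnnt2, the troponin T of heart and fetal muscle, by 4.56 ± 0.58. In p16-null DMD against WT 9 of 11 rose and 2 fell (9 and 0 with library totals), and at 18 against 3 months 8 of 11 rose and 0 fell, under TMM and library totals alike. There Actc1 was at 182.8, 140.2 and 141.5 TPM at 18 months, against 48.5, 60.9 and 39.4 TPM at 3 months (log2 fold change 1.302 ± 0.142, edgeR, adjusted p = 2.2e-05).

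Genes of the thick filament and of myosin assembly mostly fell in DMD, with 11 of 14 lower and 1 higher (median -1.19), and 8 lower and 2 higher with library totals. Unc45b, the myosin chaperone, was at 34.5, 37.0 and 27.8 TPM in DMD, against 59.95, 58.6 and 60.3 TPM in WT (log2 fold change -1.60 ± 0.20, edgeR, adjusted p = 2.1e-05). Smyd1, a methyltransferase needed for myosin assembly, changed by -1.98 ± 0.24. Stac3, on the list though a component of excitation-contraction coupling, changed by -2.06 ± 0.20. The list shares Ttn with the fibre markers, and the developing fibre list shares Des with them. Of the 14, 10 fell and 1 rose in p16-null DMD against WT (9 and 2 with library totals). At 18 against 3 months the list was mixed, with 5 of 14 higher and 4 lower under TMM and 6 higher and 0 lower with library totals. Of 19 regulators of fibre type, 14 fell and 0 rose in DMD against WT (median -0.86), and 7 fell and 2 rose with library totals. Six4, a homeodomain factor, was at 4.94, 4.63 and 4.36 TPM in DMD, against 13.4, 11.6 and 15.5 TPM in WT (log2 fold change -2.31 ± 0.17, edgeR, adjusted p = 8.7e-07). Vgll2, a cofactor of muscle transcription, changed by -1.79 ± 0.24. Of the 19, 12 fell and 1 rose in p16-null DMD against WT (6 and 2 with library totals), and at 18 against 3 months 4 rose and 2 fell (6 and 1 with library totals).

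**Figure D5:**
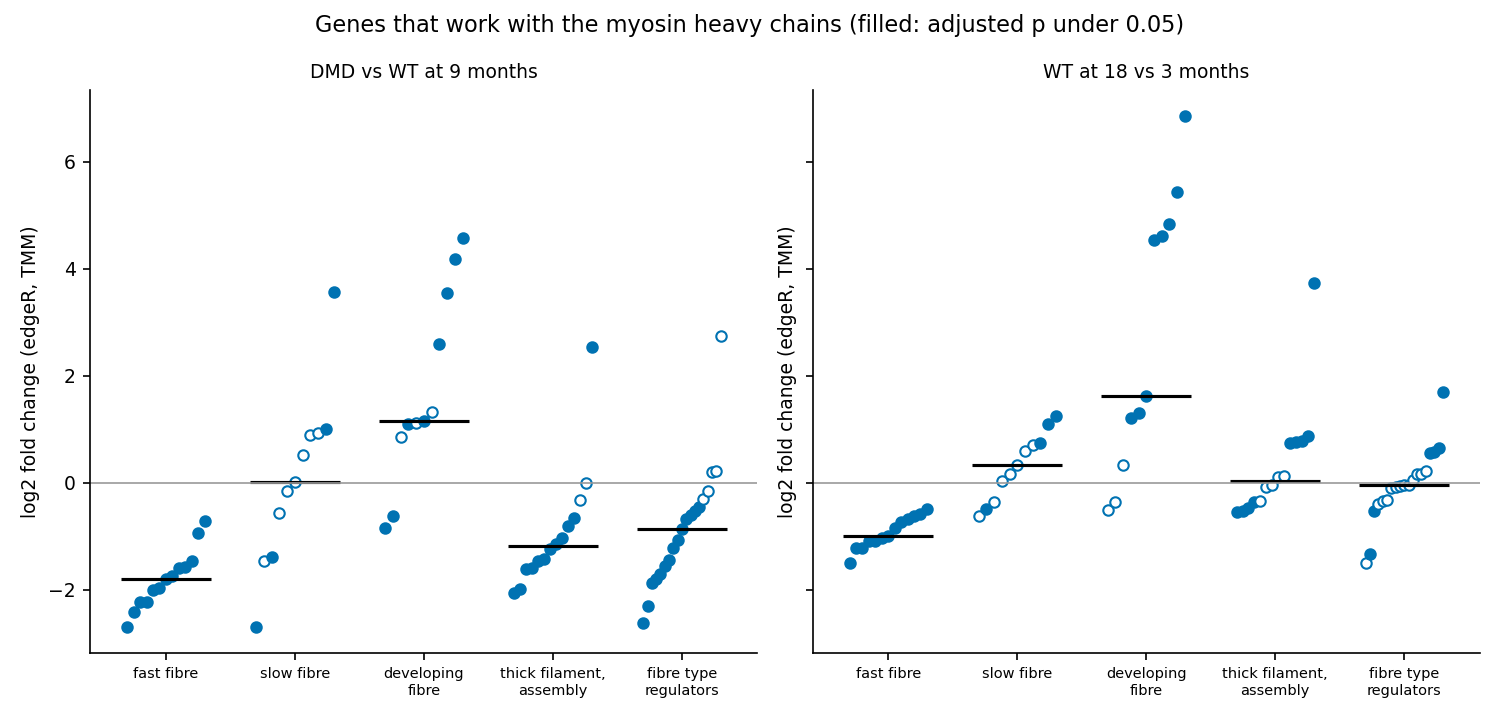
Fitted log2 fold change (edgeR, TMM) of each tested gene on 5 lists of genes that work with the chains, in DMD against WT at 9 months and in WT at 18 against 3 months, with list medians as bars and filled points where the adjusted p was under 0.05. Every fast fibre partner is filled and below 0 in both panels, with medians of -1.80 and -1.003, and the developing fibre genes have medians of 1.16 and 1.62.

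In p16-null DMD against DMD no gene of these 5 lists passed (edgeR). Of the other myosin heavy chains with an entry, 5 were tested. In p16-null DMD against WT 1 of the 5 rose, beside 27.5% of all genes. At 18 against 3 months 3 of the 5 rose, beside 9.31% of all genes. In DMD against WT 2 of the 5 rose, beside 26.4% of all genes. These were Myh9, the non-muscle chain, at 131.6, 102.4 and 159.7 TPM in DMD, against 40.3, 36.5 and 44.9 TPM in WT (log2 fold change 0.92 ± 0.17, edgeR, adjusted p = 0.0004), and Myh6, the alpha cardiac chain, at 0.39 to 3.74 TPM in DMD and 0.06 to 0.33 TPM in WT (log2 fold change 2.57 ± 0.95, edgeR, adjusted p = 0.036). The WT values of Myh6 rest on 3.48 to 13.6 estimated counts, its call was lost with a replicate block (1 of the 5 chains higher), and it did not pass the filter of 5 CPM in 3 libraries. In p16-null DMD against WT Myh6 did not pass the test (edgeR, log2 fold change 1.08).

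The spread of each chain within its groups was also compared with that of other genes, as a description over 18 libraries and 12184 genes with a mean of at least 1 TPM. Pearson's r was taken between log2(TPM + 1) deviations from the group means, which share depth and tissue composition within a library. Myh7 was most alike to Tnnt1 (0.97), the slow troponin T, then Atp2a2 (0.94), the slow and cardiac calcium pump, and Tnnc1 (0.94), the slow and cardiac troponin C. In the age set, Tnnt1 was at 98.9, 10.9 and 249.8 TPM at 18 months, against 55.7, 58.1 and 75.3 TPM at 3 months, lowest and highest in the same 18-month libraries as Myh7. Myh2 was most alike to Esrrg (0.90), an oestrogen-related nuclear receptor, Hsdl2 (0.87) and Myl3 (0.86), the slow light chain. Myh4 was most alike to Atp1b2 (0.89), a subunit of the sodium pump, Myom2 (0.87), an M-band protein of fast fibres, and Ilrun (0.87). Myh3 was most alike to Ormdl3 (0.91), Rab12 (0.90) and Tmem108 (0.89), Myh8 to Tpd52l1 (0.88), Pigl (0.88) and Rin1 (0.86), and Myh7b to Nrbp2 (0.89), Rapgef3 (0.86) and Plcd3 (0.85). Between chains the same measure was highest for Myh8 with Myh2 (0.79) and Myh3 with Myh7b (0.73), and was 0.59 for Myh3 with Myh8 and -0.34 for Myh4 with Myh2.

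The chains of the cluster are near-identical over long stretches, and the estimated counts divide reads that match several of them. Counts were not whole numbers in 18 of 18 libraries for Myh8, Myh4, Myh2 and Myh7 and in 17 for Myh3, and were whole in all 18 for Myh7b. Whether reads of Myh1 or Myh4 were assigned to other chains was not tested, so the levels of Myh4, Myh2, Myh8 and Myh3 are uncertain to that extent. Myh7 lies outside the cluster, and Myh6 too had counts that were not whole (157.56, 60.48 and 17.92 in DMD). How the reads of Myh7 and Myh6 were divided was not tested either, so their levels are also uncertain. In WT at 9 months Myh8 had 96.6 to 203.6 estimated counts, beside 333863 to 548160 of Myh4.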

How the data were processed

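RNA from 18 tibialis anterior samples was sequenced after TruSeq library preparation, per the labels' protocols. The authors deposited estimated counts (expected counts) and TPM per gene. The submitters' processing notes name Trimmomatic, FastQC, STAR 2.7.10b, RSEM 1.3.3 and the build mRatBN7.2. The annotation release and the strand setting were not given in the sources used here.

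Counts, 4.50% of them not whole, were rounded. The 9-month groups (12 libraries, 14801 genes) and the age groups (6 libraries, 13487 genes) were each fitted with edgeR 4.0.16 (filterByExpr, TMM, quasi-likelihood test, no covariates), and p-values were Benjamini-Hochberg adjusted over all genes, with a threshold of 0.05. SE is the log2 fold change divided by the square root of F. The dystrophic libraries had TMM factors of 0.998 to 1.19, against 0.687 to 0.761 for WT of that age, so scaling bears on directions. Shares of summed TPM were compared by exact 2-sided permutation tests. Alternatives were RLE scaling, library totals, TMM without the chains, DESeq2 1.42.0, limma 3.58.1 on log2(TPM + 1) or log2(TPM + 0.1), no filter, 5 CPM in 3 libraries, a replicate block, only the groups compared, 1 fit of 18 libraries, at least a 2-fold change and leaving out each library. Scripts were tested on simulated data. Replicates differed well beyond counting noise (chi-square per degree of freedom 12.5 to 83.7), so none was a copy of another. Whether some came from the same animal cannot be told from this.

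The members and the gene lists were chosen with earlier results of these data known. Named partners are the 3 of each list with the smallest p in DMD against WT, of which 1 gene is not reported here. Promoter sequences are from RefSeq (GRCr8), and gene coordinates of mRatBN7.2 were not used here.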

Additional observations from a re-analysis of the deposited data

Results flagged for a closer look

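Of 16 measures screened for a single library far from its group (p16-null DMD, the only group of 4 to 10 libraries), 1 was singled out, about what chance gives at 1 in 20. The Myh3 to Myh8 TPM ratio was 3.50 in p16-null DMD replicate 5, against 1.12 to 1.33 in the other 5 libraries of that group. The gap to its nearest neighbour was 0.913 of the group's range, above Dixon's critical value of 0.625. In that library Myh3 was at 70.95 TPM, within the range of the others, and Myh8 at 20.3 TPM was the lowest of the 6. Its Myh2 and Myh7 levels, at 142.5 and 26.6 TPM, were the lowest of the group too.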

How the results depend on the processing

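The calls of Myh3 and Myh8 in both dystrophic groups against WT and at 18 against 3 months, and the Myh4 calls in both dystrophic groups, held under all alternatives run. Over all alternatives and chains, 479 log2 fold changes kept direction and side of the threshold, 8 passed only under the alternative, 5 lost their call (all Myh2 in p16-null DMD against WT) and 18 changed sign. The causes were not tested.

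Log2 fold changes that had not passed changed sign as follows. Under other settings, Myh8 in p16-null DMD against DMD was 0.0198 with a replicate block, and at 18 against 3 months Myh7b was 0.15 with library totals and 0.18 and 0.28 on log2(TPM + 1) and log2(TPM + 0.1), and Myh7 was -0.10 and -0.24 on those TPM scales and -0.13 with a block. Leaving out 1 library, the range in p16-null DMD against DMD was -0.0227 to 0.55 for Myh3, -0.506 to 0.0874 for Myh8, -0.307 to 0.0726 for Myh4 and -0.514 to 0.18 for Myh7b. In p16-null DMD against WT it was -0.12 to 0.45 for Myh7 and -0.0059 to 0.58 for Myh7b, and at 18 against 3 months -0.55 to 1.42 for Myh7 and -0.31 to 0.0753 for Myh7b.

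Leaving out 1 library, share differences in percentage points crossed 0 for Myh2 (-2.86 to 0.308), Myh4 (-3.78 to 0.330) and Myh7 (-0.332 to 0.771) in DMD against WT, Myh8 (-0.160 to 0.179) and Myh7b (-0.0072 to 0.0150) in p16-null DMD against DMD, and Myh7b (-0.00077 to 0.0078) and Myh7 (-0.0568 to 1.06) at 18 against 3 months.

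Genes called with at least a 2-fold change were 4489 in DMD against WT, 4221 in p16-null DMD against WT and 802 at 18 against 3 months. In p16-null DMD against DMD DESeq2 called 13 and the block 0, and leaving out 1 library gave 1 to 85, the highest without DMD replicate 1. At 18 against 3 months 1 fit of 18 libraries called 1742, and leaving out 1 library gave 1696 to 2415. Library totals moved the split of calls to 7691 higher and 1240 lower in DMD against WT, 8071 and 1251 in p16-null DMD against WT, and 2609 and 652 at 18 against 3 months.

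Same-numbered libraries of different groups did not pair: over 12 pairs of deviations r was -0.207 to 0.108, with 1 pair over 0.1. With the replicate block Myh2 in p16-null DMD against WT lost its call (-1.05, edgeR, adjusted p = 0.12) and Myh4 at 18 against 3 months gained one (-0.41, edgeR, adjusted p = 0.021). Depth limits Myh3 in WT at 9 months, which rested on 9.03 to 36.4 estimated counts.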

Other observations

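Myog, a myogenic transcription factor, and the fusion proteins Mymx and Mymk are given here as values, chosen after they were seen. Myog was at 220.1, 233.3 and 254.6 TPM in WT at 18 months, against 7.71, 6.12 and 9.82 TPM at 3 months, and at 39.2, 117.5 and 73.1 TPM in DMD, against 25.1, 12.4 and 27.4 TPM in WT at 9 months. Mymx was at 247.5, 327.4 and 213.6 TPM at 18 months, against 0.71, 0.19 and 4.07 TPM at 3 months, and at 37.4, 119.4 and 87.3 TPM in DMD, against 36.04, 2.92 and 20.6 TPM in WT at 9 months. Mymk was at 45.95, 39.2 and 30.9 TPM at 18 months, against 1.73, 0.18 and 0.21 TPM at 3 months, and at 39.6, 99.5 and 65.2 TPM in DMD, against 3.73, 1.01 and 1.8 TPM in WT at 9 months. Myog and Mymx were higher at 18 months than in every DMD library, whereas Mymk overlapped DMD. Like Myh3, Mymk had its group means in the order p16-null DMD (107.3 TPM), DMD (68.1 TPM) and WT at 18 months (38.7 TPM). Its 2 dystrophic groups overlapped, and Actc1, Myl4, Casq2 and Tnnt2 had the same order. The remaining WT groups differed in order, with Mymk higher at 9 than at 3 months (2.18 and 0.71 TPM) and Myh3 lower (0.347 and 0.433 TPM). The 18-month and DMD libraries were not compared by a test.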
